A study of Homo sapiens with 4 samples.

Results

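The genes described here encode the proteins of the cytosolic ribosome. They were chosen by symbol: every protein-coding gene named RPL or RPS followed by a number and at most the letters A, X or L. The stalk genes *RPLP0*, *RPLP1* and *RPLP2* and *RPSA* were added, and *RPS27L*, the *RPS6K* kinases, antisense genes and pseudogenes were left out. RefSeq holds 81 such genes, and 79 of them were measured, among 22439 genes matched on the arrays. They comprised 49 genes of the large subunit and 30 of the small subunit, read by 155 probes, and *RPL10* and *RPSA* had no matched probe. A single probe read 36 of the genes, and 43 had more than 1 probe.

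The cells were A549, an established human lung adenocarcinoma line. Total RNA was labeled with Cy3 and hybridized to 4 single-color Agilent expression arrays, which shared 1 slide and 1 scan. The groups were cells transfected with *miR-486-5p* (1 array), cells transfected with *miR-486-3p* (1 array) and mock cells given the transfection reagent, Lipofectamine RNAiMAX, alone (2 arrays). The 2 strands come from the same precursor hairpin, and mock cells received no control miRNA. In a comparison with mock, the effect of a given strand and that of carrying any small RNA therefore cannot be told apart. The time from transfection to RNA extraction for the arrays is not given in the sources used here. *KRT8* and *KRT18*, keratins of simple epithelia, were well above background on the 4 arrays, whereas the *CDH1* probe was on none and the *EPCAM* probe on 2 of them. Among leukocyte and endothelial markers, 4 of 7 and 1 of 5 probes were well above background on the 4 arrays. The 3 *PECAM1* probes and 3 of the 5 *PTPRC* probes were on none. Over the 75th percentile of each array, the summed signal of the epithelial list was 214 and 212 in mock cells, 152 with *miR-486-5p* and 159 with *miR-486-3p*. In the same order it was 1.09, 1.08, 0.945 and 0.863 for the leukocyte list and 0.221, 0.223, 0.296 and 0.370 for the endothelial list, and the part of these shifts in the results was not tested.

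A ribosome is built from ribosomal RNA and about as many different proteins as there are genes in this family, most of them present once per particle. The genes are transcribed at high rates in growing cells, and their mRNAs typically begin with a C followed by a run of pyrimidines, the terminal oligopyrimidine (TOP) motif, through which mTOR signaling controls their translation together. MicroRNAs act on mRNAs mostly through short matches in the part after the coding region. Many of these genes have near-identical processed pseudogenes, and a hybridization probe cannot always tell the copies apart.

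The first bases of the transcripts show what the family shares. Of the 62 measured genes with an annotated start in the RefSeq table (GRCh38.p14), 44 (71.0%) had at least 1 start with a C followed by at least 4 bases that are C or T, read along the transcript, against 6.24% of 15842 protein-coding genes. The windows below run from 15 bases before the start to 15 bases from it, with the pyrimidine run in capitals, or the first base where there is no such run. They are shown for the 3 stalk genes, of which *RPLP0* and *RPLP2* fell after *miR-486-3p* and *RPLP1* was not called. They are also shown for *RPL13A*, whose 3 probes fell to a like extent, and for *RPS28*, which fell. The annotated start of *RPS28* lacks the run, though a stretch of C and T begins at the next base.

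RPLP0 (chr12:120201097-120201126, minus strand): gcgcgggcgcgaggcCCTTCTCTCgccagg
RPLP1 (chr15:69452803-69452832, plus strand): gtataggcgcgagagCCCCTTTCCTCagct
RPLP2 (chr11:809952-809981, plus strand): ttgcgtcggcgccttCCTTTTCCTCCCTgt
RPL13A (chr19:49487593-49487622, plus strand): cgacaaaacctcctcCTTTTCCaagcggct
RPS28 (chr19:8321481-8321510, plus strand): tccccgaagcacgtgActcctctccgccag

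The run was present in the stalk genes that fell and in the stalk gene that was not called. Among the 12 family members that lay below −0.5 after *miR-486-3p*, 10 were in the table and 7 of these had the run, as did 37 of the 52 other members in the table. The median log2 difference after *miR-486-3p* was −0.11 for the 44 members with the run and −0.14 for the 18 without it. This grouping goes by the bases at the annotated start alone. A start annotated next to a stretch of C and T, as in *RPS28*, counts as without the run.

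All values below are log2 signals over the 75th percentile of the array, averaged over the probes of a gene, and a difference is the value on a transfected array less the average of both mock arrays. Of the 155 probes, 154 were well above background on the 4 arrays, the exception being 1 of the 4 probes of *RPL28*. The family took 14.9% to 15.1% of the summed signal on the mock and *miR-486-5p* arrays and 14.4% where *miR-486-3p* was given. The mock arrays differed little over these genes: the 154 probes had a median difference of −0.01, mock 2 minus mock 1, with an SD of 0.06 and a range of −0.22 to 0.19. None passed 0.5 in size, against 2.80% of the 28246 probes of all kinds that were well above background on the 4 arrays. The *RPL30* probe, spotted 10 times, varied within an array with an SD of 0.0304 to 0.0404. Each strand had 1 array, so the tests (limma, with Benjamini-Hochberg adjustment) take their only residual degree of freedom from the mock arrays and assume that a transfected array varies as these do. Whether the mock arrays come from separate cultures is not stated, so these p-values may measure technical spread alone. The arrays measured bulk RNA, in which fewer cells of a type and less RNA per cell cannot be told apart.

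**Figure D1:**
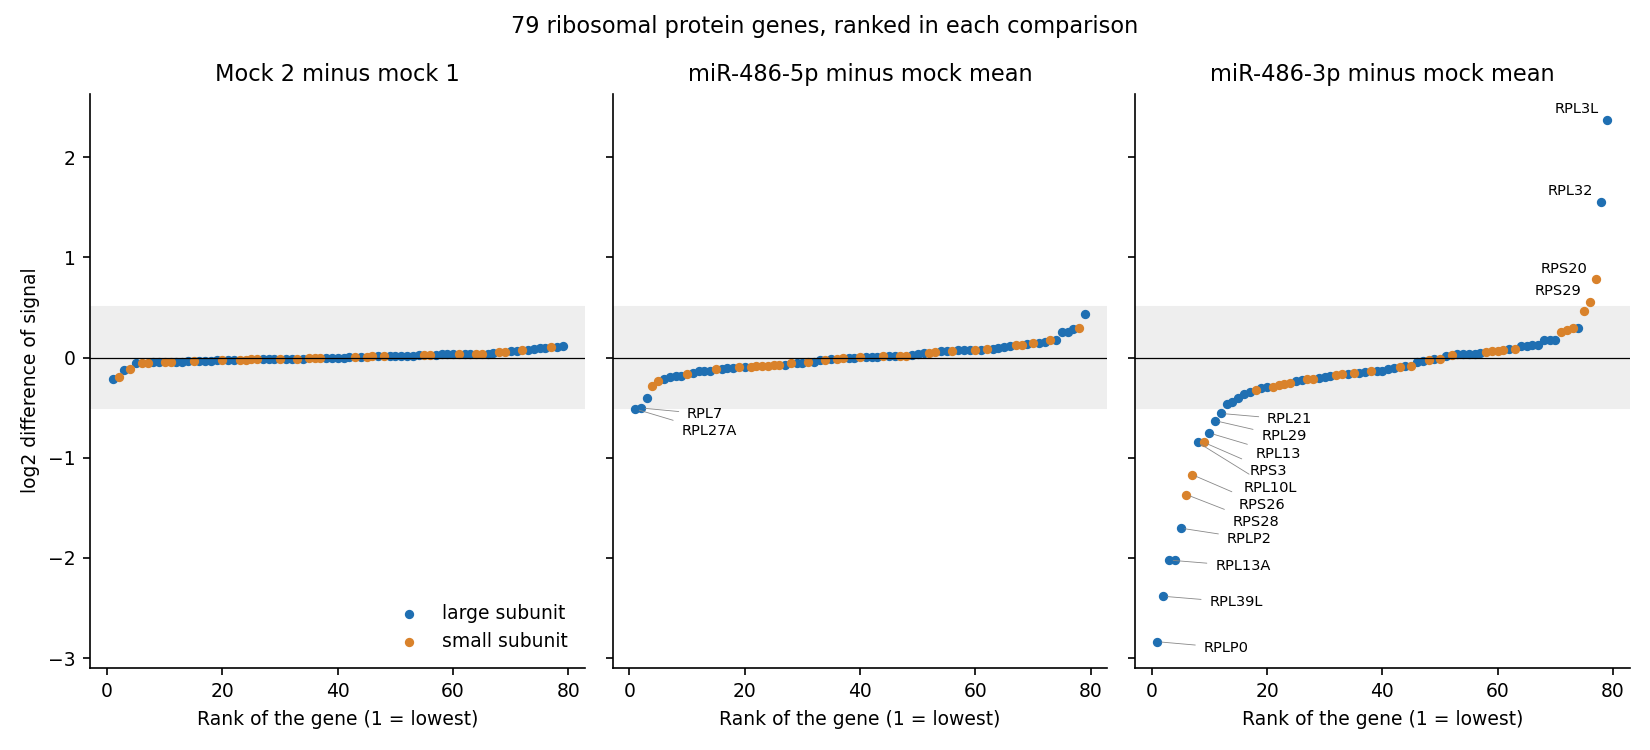
The 79 genes ranked by their log2 difference (vertical axis) in each of 3 comparisons, 1 point per gene, with the large subunit in blue, the small subunit in orange and the range of ±0.5 in gray. Between the mock arrays all genes lay within −0.22 to 0.12, after *miR-486-5p* *RPL27A* and *RPL7* lay just past −0.5, and after *miR-486-3p* 12 genes lay below −0.5 and 4 above 0.5.

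After *miR-486-5p* the family stayed close to mock. The median log2 difference over the 79 genes was 0.00, with a range of −0.51 to 0.43, and 68 genes lay within 0.2 of mock. Over all 16024 genes measured in this comparison the median was 0.03, and with median scaling, which moved both medians by −0.08, 19.1% of all genes lay below −0.5 and 10.9% above 0.5. Only *RPL27A* and *RPL7* passed a limit of 0.5 in size, both below mock and both by a margin of under 0.02, where 15.9% of all genes lay below −0.5, and no gene of the family lay above 0.5, where 13.8% of all genes did. By limma at an adjusted p of 0.05, 0 of the 79 genes were called lower and 1 higher, where 6.66% and 3.58% of the 16662 genes tested were. At an unadjusted p under 0.05, 8 genes of the family had at least 1 probe past the threshold, against 47.6% of all genes. With an intensity trend in limma 10 were called lower and 11 higher, where 25% and 22.2% of all genes were.

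*RPL7*, a large subunit protein that binds RNA, had a signal of 7.78 and 7.78 on the mock arrays and 7.27 after *miR-486-5p*, a difference of −0.50. Its 3 probes had differences of −0.61, −0.53 and −0.37 and adjusted p of 0.0578 at the lowest, so none was called. On the *miR-486-3p* array the gene stood at 7.59, closer to mock. *RPL27A*, read by 1 dim probe, had −1.54 and −1.43 in mock cells and −2.00 after *miR-486-5p* (difference −0.51, adjusted p = 0.0817). With the authors' log2 table in place of the scaled signals, or with the brightest probe of each gene, 1 gene in place of 2 lay below −0.5, and likewise without mock array 2.

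Next after *miR-486-5p* were *RPL39L* (difference −0.41) and *RPS3* (−0.28), and neither was called. *RPL22*, a large subunit protein that also binds viral and cellular RNAs, was the highest. It stood at 4.33 and 4.29 in mock cells and 4.75 after *miR-486-5p*, and its 2 probes had differences of 0.38 and 0.49 (adjusted p = 0.104 and 0.0697). *RPS29*, *RPL10L* and *RPL37* followed, at 0.29, 0.29 and 0.26. The *RPL37* value averages a dim probe at 0.60 with a bright one at −0.09, neither of them called. The single call concerned 1 of the 4 probes of *RPS29*, which stood at 0.86 and 0.78 on the mock arrays and 1.86 after *miR-486-5p* (difference 1.04, adjusted p = 0.0475), while the other 3 probes of the gene had differences of 0.04 to 0.06.

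After *miR-486-3p* most of the family again lay near mock, and a small number of genes fell far below it. The median log2 difference over the 79 genes was −0.13 and that over all 16446 genes measured was 0.06, and 41 genes of the family lay within 0.2 of mock. Below −0.5 lay 12 genes, or 15.2% of the family, where 27.2% of all genes did, and above 0.5 lay 4 genes, or 5.06%, where 30.4% of all genes did. By limma 18 of the 79 genes were called lower and 9 higher, where 31.6% and 31.9% of all genes tested were. *RPL28* and *RPS23* were in both counts through different probes, and 54 genes of the family were called in neither direction. These comparisons with mock rest on the same mock arrays, so their values are given side by side and not related to each other.

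The comparison depends on the scaling. With each array centered on its median signal in place of its 75th percentile, the median over all genes moved by −0.37 to −0.32 and that of the family to −0.50, so the family lay 0.19 below all genes with both scalings, and 41.7% of all genes lay below −0.5 and 17.8% above 0.5. With quantile normalization it lay 0.05 below all genes. With median scaling the counts for the family became 40 of 79 genes below −0.5 and 2 above 0.5. By limma 49 of the 79 were called lower and 5 higher, where 45.5% and 20.5% of all genes were. The family's shares below −0.5 and called lower were thus above those of all genes with median scaling. With the 75th percentile both were below those of all genes. After the median over all genes was subtracted, 14 genes of the family lay below −0.5 and 4 above 0.5. By the methods' t-test, 0 genes of the family and 0% of all genes were called after adjustment in either direction. At an unadjusted p under 0.05, 41 genes of the family had a probe past the threshold, against 42.2% of all genes.

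Bright probes offer a closer background. Above the lower quartile of the family's probes, a signal of 7.03 on the mock arrays, lay 116 of them and 391 probes outside the family. The others were kept whether or not they matched a gene. They include probes of the family's pseudogenes, such as *RPL13AP3* (7.74 and 7.62 in mock cells), and the part of these in the shares was not tested. With *miR-486-3p* 14.7% of the 116 lay below −0.5 and 0 above 0.5, and of the 391 others 28.1% lay below and 4.60% above. After *miR-486-5p* the shares were 0.862% below and 0 above for the family, and 9.72% and 1.79% for the others.

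**Figure D2:**
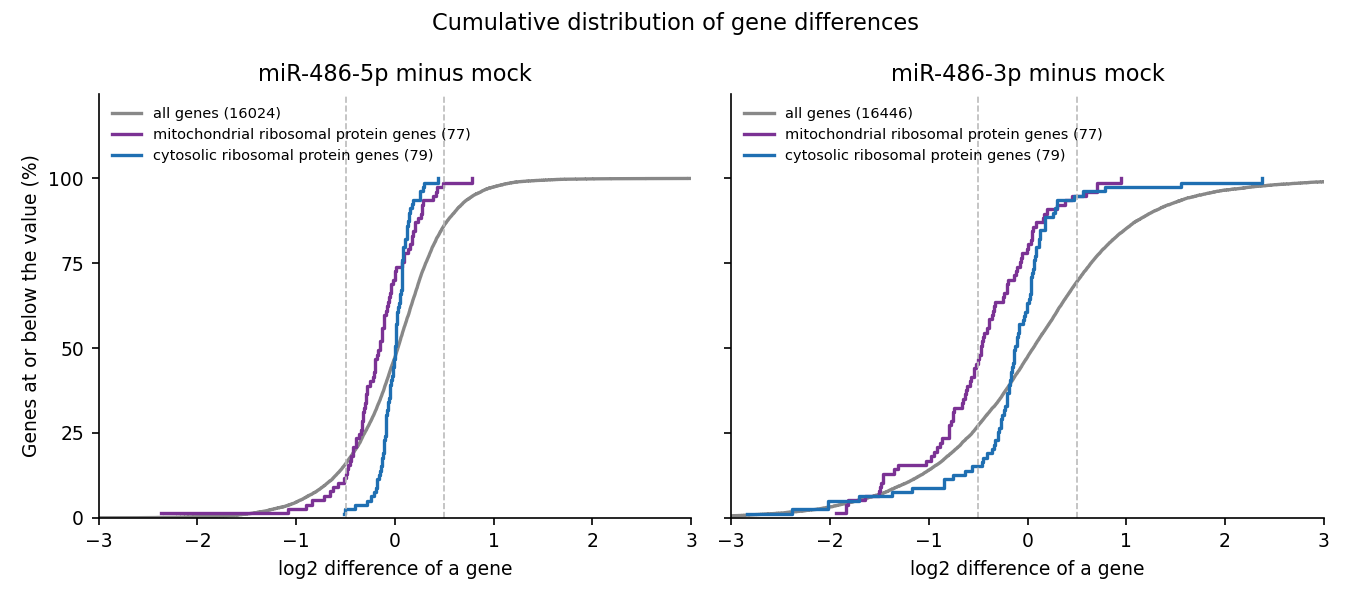
Cumulative share of genes (vertical axis, percent) at or below each log2 difference from mock (horizontal axis, cropped at −3 and 3), for all genes in gray, mitochondrial ribosomal protein genes in purple and cytosolic ribosomal protein genes in blue; dashed lines mark ±0.5. The blue curve is the steepest in both panels and has a lower tail after *miR-486-3p*, where the purple curve lies to its left through the middle, with a median of −0.47.

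The P stalk is the flexible arm of the large subunit that recruits translation factors, with *RPLP0* as its base and dimers of *RPLP1* and *RPLP2* as its arms. *RPLP0* had the largest fall of the family. Its signal was 8.74 and 8.78 in mock cells, 8.62 with *miR-486-5p* and 5.92 with *miR-486-3p*. The *miR-486-3p* array alone stood apart, 7.15-fold lower than mock (difference −2.84), and the 2 probes of the gene had differences of −2.94 and −2.73 (SE 0.0917 and 0.0883, adjusted p = 0.00762 for both). *RPLP2* stood at 8.90 and 8.92 in mock cells, 9.06 with *miR-486-5p* and 7.21 with *miR-486-3p*. It fell to 30.7% of mock (difference −1.70, SE 0.0876, adjusted p = 0.00774). *RPLP1*, which pairs with *RPLP2* in the stalk, stood at 9.36 and 9.34 in mock cells, 9.45 with *miR-486-5p* and 9.39 with *miR-486-3p* (difference 0.04, SE 0.0875, adjusted p = 0.719). The 3 genes of 1 structure thus had differences of −2.84, −1.70 and 0.04 on the same array. Over the alternative settings run, *RPLP0* ranged from −3.21 to −2.64, *RPLP2* from −2.08 to −1.49 and *RPLP1* from −0.33 to 0.05.

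The fall of *RPL13A* was read alike by its probes. *RPL13A*, which besides its place in the ribosome is known for silencing inflammatory mRNAs in the GAIT complex, stood at 7.83 and 7.85 in mock cells, 7.90 with *miR-486-5p* and 5.82 with *miR-486-3p*. Its 3 probes had differences of −2.11, −2.03 and −1.92 (adjusted p = 0.00762 for each), and the gene mean was 24.6% of mock. The *miR-486-5p* value lay above both mock values and the *miR-486-3p* value far below them.

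Other large subunit genes below −0.5 were *RPL39L* and *RPL10L*, described with the paralogues, and *RPL13*, *RPL29* and *RPL21*. *RPL29*, a protein also known to bind heparin, stood at 6.73 and 6.74 in mock cells, 6.91 with *miR-486-5p* and 6.10 with *miR-486-3p*, and its 4 probes had differences of −0.73 to −0.56 (adjusted p of 0.0171 to 0.026). *RPL21* stood at 6.88, 6.82, 6.92 and 6.29 in the same order, its 9 probes had differences of −0.66 to −0.44, and 8 of them were called lower. In both genes the *miR-486-3p* array was the lowest of the 4. *RPL13* had 2 probes with unlike values. The dimmer one stood at 7.40 and 7.42 in mock cells and 6.01 after *miR-486-3p* (difference −1.41, adjusted p = 0.00856), and the brighter one at 9.36, 9.42 and 9.29 (difference −0.10, adjusted p = 0.418).

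**Figure D3:**
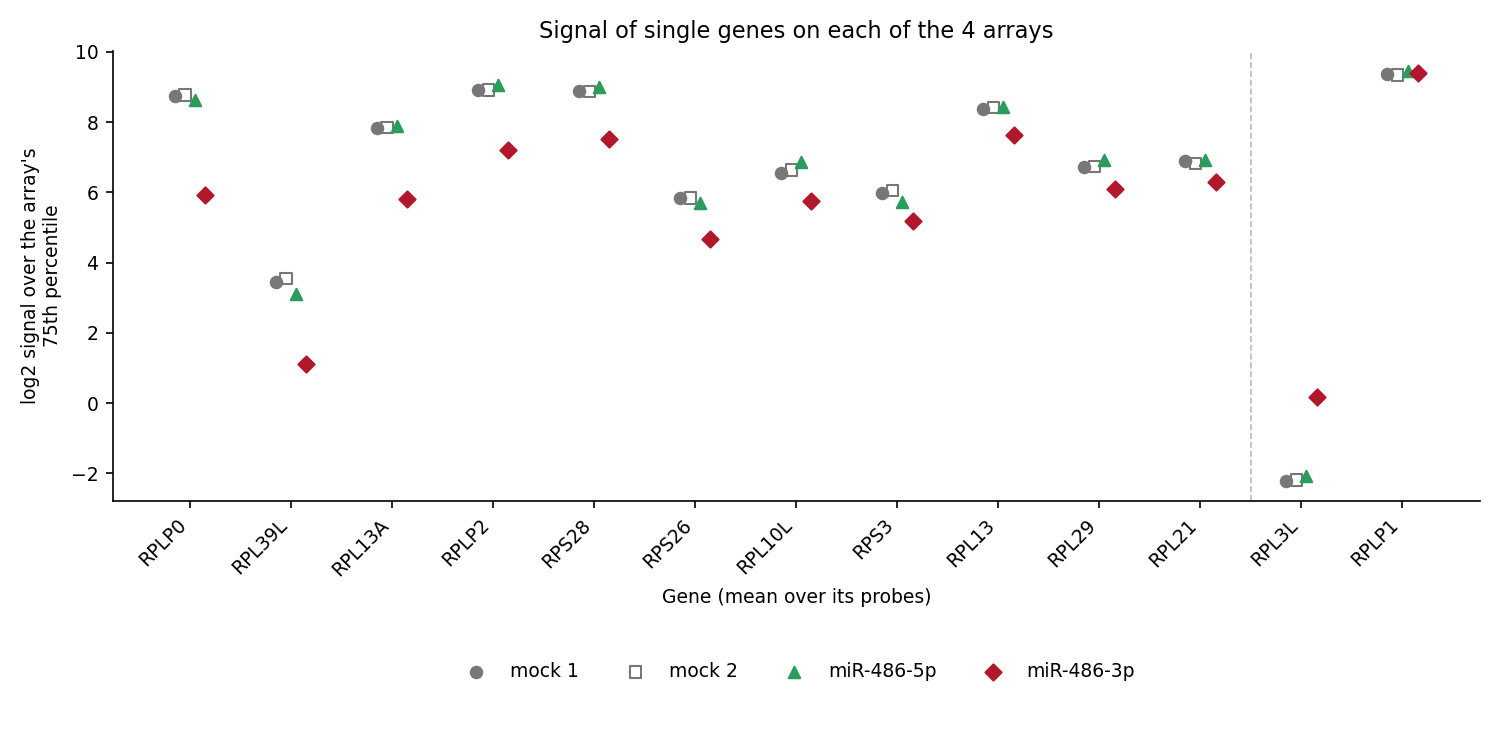
Log2 signal over the 75th percentile of the array (vertical axis) for genes below −0.5 after *miR-486-3p* that are named in the text, ordered by their difference, and right of the dashed line for *RPL3L* and *RPLP1*; each array is 1 symbol, and heights are comparable between arrays within a gene but not between genes. In each gene left of that line the red diamond (*miR-486-3p*) lies below the other 3 symbols, in *RPL3L* above them, and in *RPLP1* the 4 symbols lie between 9.34 and 9.45.

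*RPL5* and *RPL11* form a particle with the 5S rRNA that joins the large subunit during its assembly and can bind MDM2 when assembly fails. *RPL5* stood at 7.49 and 7.48 in mock cells, 7.49 with *miR-486-5p* and 7.02 with *miR-486-3p*. Its 4 probes had differences of −0.55 to −0.38, of which the 3 lowest were called, and the gene mean was 72.5% of mock. *RPL11* stood at 8.76 and 8.73 in mock cells and 8.64 after *miR-486-3p* (difference −0.11, adjusted p = 0.379). Of 7 genes whose proteins surround the exit of the peptide tunnel (*RPL17*, *RPL19*, *RPL23A*, *RPL26*, *RPL31*, *RPL35* and *RPL39*), none lay beyond ±0.5. Their differences ran from −0.34 for *RPL17* to 0.12 for *RPL39*, with 1 call, at 1 of the 4 probes of *RPL23A* (difference −0.59, adjusted p = 0.0249), whose other probes had differences of −0.09 to −0.03. *RPL14* was also called lower (difference −0.45, adjusted p = 0.0396).

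In the small subunit 3 of 30 genes lay below −0.5 after *miR-486-3p*, against 9 of 49 in the large subunit, a contrast that was not tested. *RPS28*, a small protein near the channel through which mRNA leaves, stood at 8.89 and 8.88 in mock cells, 9.01 with *miR-486-5p* and 7.52 with *miR-486-3p*. It fell to 38.7% of mock, and its 2 probes had differences of −1.40 and −1.33 (adjusted p = 0.00865 and 0.00878). *RPS26*, its neighbor at the exit channel, stood at 5.85 and 5.84 in mock cells, 5.68 with *miR-486-5p* and 4.68 with *miR-486-3p*. Its 3 probes were called lower with differences of −2.24, −0.64 and −0.62, the first being the dimmest of the 3, and the gene mean was −1.17. *RPS3*, which with *RPS2* surrounds the entry of the mRNA channel, stood at 5.98 and 6.06 in mock cells, 5.74 with *miR-486-5p* and 5.17 with *miR-486-3p* (difference −0.85, adjusted p = 0.0157). *RPS2* had a difference of 0.27 and no probe called.

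*RPS6*, the small subunit protein that S6 kinases phosphorylate, stood at 8.92 and 8.88 in mock cells, 8.83 with *miR-486-5p* and 8.61 with *miR-486-3p* (difference −0.29, adjusted p = 0.0857). *RPS27A*, made as a fusion with ubiquitin, had a difference of −0.26 (adjusted p = 0.0984). Of the X-linked genes measured, *RPS4X* had −0.13, *RPL36A* −0.17 and *RPL39* 0.12 after *miR-486-3p*, and none was called. Among the 12 genes below −0.5, 7 were under 50% of mock. Of the 30 probes of the 12 genes, 28 were called lower. That count adds no support, since the genes were picked by the same difference.

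The members of 4 pairs of paralogues differ in where they are expressed or how they arose. *RPL3L* takes the place of *RPL3* in heart and skeletal muscle, *RPL10L* and *RPL39L* are best known from testis, and *RPL36AL* is an expressed retrocopy of *RPL36A*. *RPL3L* was the one gene of the family in which the only probe rose after *miR-486-3p*. It stood at −2.20 and −2.19 in mock cells, −2.08 with *miR-486-5p* and 0.18 with *miR-486-3p*, 5.19-fold higher than mock (difference 2.38, SE 0.0876, adjusted p = 0.00762), and over the alternative settings run its difference was 1.25 to 2.38. *RPL3* itself had a difference of 0.18, with adjusted p of 0.184 at the lowest. *RPL39L* stood at 3.46 and 3.55 in mock cells, 3.10 with *miR-486-5p* and 1.12 with *miR-486-3p*, which is 19.2% of mock (difference −2.38, adjusted p = 0.00762), whereas the 4 probes of *RPL39* had differences of 0.05 to 0.18. *RPL10L* stood at 6.55 and 6.64 in mock cells, 6.88 with *miR-486-5p* and 5.75 with *miR-486-3p* (difference −0.85, adjusted p = 0.0169). *RPL10* had no matched probe, and since its coding sequence is close to that of *RPL10L*, which of the pair the *RPL10L* probe reads is uncertain. *RPL36A* and *RPL36AL* had differences of −0.17 and −0.15, neither called.

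Apart from *RPL3L*, every rise in the family after *miR-486-3p* was read by 1 probe of a gene whose brightest probe was not called higher. With the brightest probe alone, 15 genes were called lower and 1, *RPL3L*, higher. *RPL32* had 1 probe at 1.20 and 1.22 in mock cells and 4.46 after *miR-486-3p*, 9.50-fold higher (difference 3.25, adjusted p = 0.00762), and 1 probe to the same transcript record at 8.70, 8.75 and 8.60 (difference −0.13, adjusted p = 0.303). The probe of *RPS29* that was called after *miR-486-5p* stood at 3.75 after *miR-486-3p*, 7.61-fold higher than mock (adjusted p = 0.00762), and the other 3 probes of the gene had differences of −0.29 to −0.18. That probe was designed to another transcript record than the other 3. The same held for *RPS20* and *RPS24*, each with 1 probe per record. The dim probe of *RPS20* went from −3.38 and −3.60 to −1.88 (difference 1.61, adjusted p = 0.0119) beside a bright one with a difference of −0.03, and in *RPS24* the differences were 0.95 (adjusted p = 0.0212) and −0.01.

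*RPL28* is read by 4 probes to 4 transcript records, and these were called in both directions. The brightest stood at 7.64 and 7.68 in mock cells, 7.67 with *miR-486-5p* and 6.17 with *miR-486-3p* (difference −1.49, adjusted p = 0.00843). A second stood at 2.64, 2.60, 3.15 and 0.94 in the same order (difference −1.68, adjusted p = 0.00786). The next was called higher, from −1.66 and −1.67 to −0.89 (difference 0.77, adjusted p = 0.0158). The last was not well above background on the mock and *miR-486-5p* arrays, at −4.73 and −5.60 in mock cells, and at −3.96 after *miR-486-3p* it was at least 1.70-fold higher (adjusted p = 0.127). The gene mean of −0.41 therefore describes none of its probes. *RPS23* had 1 probe called lower (−0.51) and 1 called higher (0.62), and *RPL37* had 1 probe called lower (−0.55) and 1 at 0.10. *RPL15* and *RPS14* were called higher at 1 of 2 probes, with differences of 0.66 and 0.42. In all, the probes of 7 of the 43 genes with several probes lay more than 1 apart after *miR-486-3p*.

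**Figure D4:**
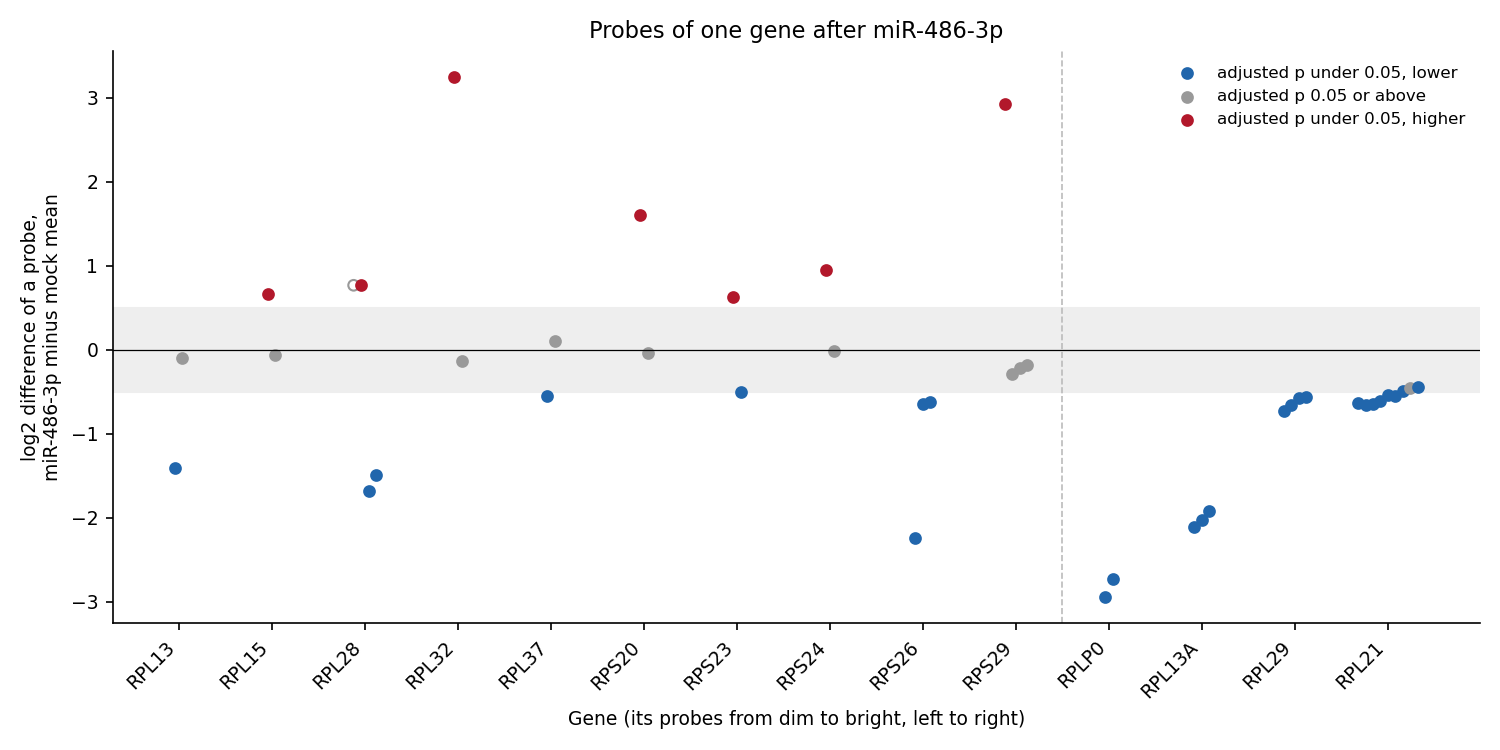
Log2 difference from mock after *miR-486-3p* (vertical axis) of each probe of 14 genes, ordered within a gene from dim to bright, with probes called lower by limma in blue, called higher in red, and not called in gray; the open symbol is the *RPL28* probe whose mock value is a bound. Left of the dashed line the probes of a gene are spread, and the highest probe, of *RPL32*, lies at 3.25. Right of it, in *RPLP0*, *RPL13A*, *RPL29* and *RPL21*, the probes of a gene lie close together and below −0.4.

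The arrays of the strands can also be set against each other without the mock arrays entering the difference. For *miR-486-3p* minus *miR-486-5p*, the median over the family was −0.06 and over all genes 0.03. Below −0.5 lay 13 of the 79 genes of the family and above 0.5 lay 4, where 26.4% and 28.6% of all 16561 genes measured did. By limma 20 genes of the family were called lower and 8 higher, where 27.3% and 26.7% of all genes tested were. With median scaling 38.9% of all genes lay below −0.5 and 18.9% above 0.5, and 30 and 2 of the family did. Among the lowest were *RPLP0* at −2.70 and *RPL13A* at −2.09, with adjusted p of 0.0119 for both, and the highest were *RPL3L* at 2.26, *RPL32* at 1.56 and *RPS20* at 0.70, *RPL32* and *RPS20* through 1 dim probe each. *RPL22* was lower with *miR-486-3p* than with *miR-486-5p* at 1 of its 2 probes (−0.62, adjusted p = 0.0324), and *RPL27A* was higher (0.63, adjusted p = 0.044).

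Genes that work with the family but lie outside its symbols were read in the same way. *FAU*, which encodes a ribosomal protein fused to a ubiquitin-like protein, and *RACK1*, a scaffold on the small subunit, had differences of 0.08 and −0.07 after *miR-486-3p* and 0.07 and 0.11 after *miR-486-5p*, and neither was called. Of 4 ribosomal-protein-like genes (*RPL7L1*, *RPL22L1*, *RPL26L1* and *RPS27L*), *RPL22L1* and *RPL26L1* (−0.44, adjusted p = 0.047) were called lower after *miR-486-3p*. *RPL22L1*, the paralogue of *RPL22*, stood at 6.32 and 6.18 in mock cells, 6.10 with *miR-486-5p* and 4.28 with *miR-486-3p* (difference −1.96, adjusted p = 0.00815), while *RPL22* had a difference of −0.11. Of 16 other genes with TOP mRNAs, mostly translation factors, the median was −0.26 with *miR-486-3p*, and 4 were called lower and 3 higher, beside 31.6% and 31.9% of all genes. Those lower were the nucleolar protein *NPM1* (−1.24), the splicing factor *HNRNPA1* (−1.64) and the histone chaperone *NAP1L1* (−1.35), with *VIM*, which encodes vimentin, as the other (−0.55). The translation factor genes *EEF1D* and *EIF4B* were called higher with *TPT1*, which encodes the translationally controlled tumor protein (1.25). After *miR-486-5p* *VIM* alone of the 16 was called, and it was lower (−0.86, adjusted p = 0.0488). Of 10 genes for chaperones and partners of new ribosomal proteins, the median was −0.37 with *miR-486-3p*. By limma 6 of the 10 were called lower and 0 higher, where 31.6% and 31.9% of all genes were. *PDCD2*, the chaperone of *RPS2*, had a difference of −1.14, and its paralogue *PDCD2L* had −1.35.

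The mitochondrial ribosome is encoded by a separate set of nuclear genes. Of 77 measured, 35 (45.5%) lay below −0.5 and 4 (5.19%) above 0.5 after *miR-486-3p*, with a median of −0.47, and by limma 44 were called lower and 7 higher. Over all genes the shares on that array were 27.2% below, 30.4% above, 31.6% called lower and 31.9% called higher. The median was −0.15 with *miR-486-5p*, where 9 lay below −0.5 and 1 above, beside 15.9% and 13.8% of all genes. The differences after *miR-486-3p* ran from −1.94 for *MRPL15* to 0.94 for *MRPL54*. The cytosolic genes had a median of −0.13 on the same array and a narrower middle, with 41 of 79 within 0.2 of mock against 17 of 77 of the mitochondrial genes.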

How the data were processed

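Cells of 3 groups were compared on 4 arrays. The authors deposited Agilent Feature Extraction output (12.1.1.1 per the file headers), with a background-corrected intensity per spot, and their own log2 table, whose quartiles were identical on the 4 arrays by a step that is not given in the sources used here. Outlier spots were left out (50 to 72 per array), the log2 of the 75th percentile over non-control spots (93.1 to 114) was subtracted, and spots of a probe were averaged. Of 58201 probes, 30689 to 31514 were well above background. A probe was used if it was so on the transfected array or both mock arrays, and a group dim on all its arrays was raised to the lowest such signal, which makes the difference a bound. Gene values are means over probes. RefSeq accessions of 31101 of 33077 probes matched a RefSeq table (GRCh38.p14), used for names and start sequences, while the array annotation is on hg19.

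limma 3.58.1 (R 4.3.3) was fitted to 33498 probes and 3 groups, with 1 residual degree of freedom and a prior SD of 0.0893 on 1.75 degrees of freedom, and was tested on simulated data. A gene was called if at least 1 probe had an adjusted p under 0.05. The family had more probes per gene (155 for 79 genes) than all matched genes (31101 for 22439). Under this rule more probes give more chances of a call, and the shares were not adjusted for that. With so few arrays the precision of each value is limited.

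The genes and lists were chosen with earlier results of these data known. The rule for naming took the 5 lowest and 5 highest members per strand, 3 and 3 between strands, the stalk, 5S and paralogue genes, *RPS27A*, *RPS6*, *RPS4X*, members dim on an array or with probes over 1 apart, and up to 4 genes of each other list. Other names, the start windows included, were chosen after their values were seen. Alternatives were normexp (offset 50), median and quantile scaling, the authors' table, other probe choices, a limit of 1, each mock array left out, an intensity trend and the methods' t-test. Centering on the median of all genes was added after seeing the data. Some genes that the rule for naming took are not reported here. Seed matches were not analysed here.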

Additional observations from a re-analysis of the deposited data

How the results depend on the processing

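No paired analysis was possible because a strand was given to the cells of a single array. The falls of *RPLP0*, *RPL13A*, *RPLP2* and *RPL39L* and the rise of *RPL3L* after *miR-486-3p* kept their direction under the alternatives run, and the values that changed are given here by setting, the cause of each not tested unless stated. The family's median after *miR-486-3p* was −0.50 with median scaling, −0.043 with quantile normalization, −0.05 with the authors' values, −0.21 with normexp, −0.11 with the brightest probe, and −0.14 to −0.10 with a mock array left out. After *miR-486-5p* it was −0.075, 0.023, 0.025, −0.044 and −0.011 in the same order, −3.7e-05 without a filter, and 0.0020 to 0.0032 with a mock array left out. Between the strands it was −0.36, −0.061, −0.06, −0.086 and −0.092. Genes below −0.5 after *miR-486-3p* numbered 40 with median scaling and 7 at a limit of 1, with 12 when either mock array was left out, and between the strands 30 and 8. Genes above 0.5 after *miR-486-3p* numbered 2 with median scaling, normexp or a limit of 1, and 1 with the brightest probe, with 4 to 5 when a mock array was left out, and 2 between the strands under each of these settings. After *miR-486-5p* 1 gene lay below −0.5 with quantile normalization, the authors' values, normexp or the brightest probe, 0 did at a limit of 1, and 1 to 2 did when a mock array was left out. Genes called lower by limma after *miR-486-3p* numbered 49 with median scaling, 47 with normexp, 39 with an intensity trend and 0 by the methods' t-test, and those called higher 5 with median scaling, 1 with the brightest probe, 15 with the trend and 0 by the t-test. Between the strands 32, 13, 34, 13 and 35 were called lower with median scaling, the authors' values, normexp, the brightest probe and the trend, and 14, 5, 2 and 20 higher with normexp, no filter, the brightest probe and the trend. Of all genes, 38.5%, 26.3%, 31.7% and 34.9% were called lower there with median scaling, the authors' values, normexp and the trend. The shares called higher were 35.3%, 14.2% and 34.7% with normexp, no filter and the trend. After *miR-486-5p* 1, 11, 3 and 10 were called lower with median scaling, normexp, probes well above background on 4 arrays and the trend, and 6, 4 and 11 higher with the last 3 of these. Of all genes, 14.1%, 23.1% and 25% were called lower with median scaling, normexp and the trend. With normexp and with the trend, 22.2% were called higher. In that comparison 0 were called higher with the authors' values, no filter, the brightest probe or the t-test. With the authors' values, no filter or the t-test, 0% of all genes were called there in either direction. At an unadjusted p under 0.05, 9, 9 and 19 genes of the family had a probe past the threshold with the authors' values, no filter and the t-test, where 48%, 41.1% and 26.1% of all genes did. After *miR-486-3p*, 45.5%, 34.5%, 37% and 0% of all genes were called lower with median scaling, normexp, the trend and the t-test. The shares called higher were 20.5%, 38.2% and 0% with median scaling, the trend and the t-test. Within the family, the shares called lower with median scaling, normexp and the trend were above those of all genes. With the main setting that share was below that of all genes. With the brightest probe, which leaves out the dim probe that rose, *RPL32* was −0.13, *RPS20* −0.035 and *RPS29* −0.18 after *miR-486-3p*, and *RPL32* −0.092 and *RPS20* −0.18 between the strands. Signal over background limits the dim probes, among them the *RPL28* probe that was well above background on 1 array and the probes that rose in *RPS20* and *RPS24*.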

Other observations

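The arrays also carried 22 probes for 21 pseudogenes of the family, which were not counted above. Of these, 20 pseudogenes had a probe in use, and none lay beyond ±0.5 after *miR-486-5p* (median 0.13). After *miR-486-3p* 5 lay below −0.5 and 4 above 0.5 (median −0.12), where 27.2% and 30.4% of all genes did, so neither count is above the share over all genes. *RPL13AP3* stood at 7.74 and 7.62 in mock cells, 7.88 with *miR-486-5p* and 5.61 with *miR-486-3p*, a difference of −2.07 (adjusted p = 0.00781) beside −2.02 for *RPL13A*. *RPL13AP17* had −0.91, *RPL29P2* −0.70 beside −0.63 for *RPL29*, and *RPL21P44* −0.56 beside −0.56 for *RPL21*. *RPL23AP87* had the largest rise of these pseudogenes, from −3.17 and −2.99 in mock cells to −1.28 after *miR-486-3p* (difference 1.79, adjusted p = 0.00927), beside −0.19 for *RPL23A*. *RPSA*, which had no matched probe, has 2 pseudogenes on the arrays, *RPSAP9* and *RPSAP52*, with differences of −0.39 and −0.40 after *miR-486-3p*, neither called. These were named after their values were seen.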
